A study of Mus musculus with 15 samples.

Results

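The genes described here encode the Mos kinase, the MAP kinase pathway that it drives and the Emi proteins of the egg: Mos, Map2k1, Map2k2, Mapk3, Rps6ka1, Rps6ka2, Rps6ka3, Fbxo43 and Fbxo5. They are a list of gene names, taken for their roles in the arrest of the egg at metaphase II, and the list sets no threshold on a measured value. All 9 were matched by symbol to an Ensembl gene ID of the files, out of 28785 gene IDs with a count. Their RNA was counted by MATQ-seq, which copies and amplifies the total RNA of 1 cell, in each of 15 mouse oocytes. The germinal vesicle (GV) group held 9 fully grown oocytes in meiotic prophase, collected from females about 6 to 8 weeks old, 44 h after priming by pregnant mare serum gonadotropin (PMSG, 7 IU). The MII group held 6 mature eggs in the metaphase of the second meiotic division. Their donors received PMSG at the same dose, then 7 IU of human chorionic gonadotropin (hCG) after some 48 h. Eggs were collected 20 h after hCG, and hyaluronidase at 300 IU/mL removed the cumulus cells. The labels name no genotype or drug treatment for either group, and the sources used here give neither the strain nor the number of mice nor the mouse behind each oocyte.

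Mos is a kinase that oocytes make from stored mRNA once maturation resumes. It phosphorylates the MEK kinases, these phosphorylate the ERK kinases, and the ERK kinases phosphorylate the RSK kinases and other targets. Together with Emi2, an inhibitor of the anaphase-promoting complex, this pathway holds the mature egg at metaphase until fertilization, an activity known as cytostatic factor. The RSK kinases are known to be dispensable for this arrest in the mouse. Most of this regulation acts on translation and on protein, which the present RNA counts do not measure.

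Stored maternal mRNAs are often switched on through short elements near their 3′ end, and those of Mos and of both Emi genes are shown because such control is a known route to Mos and Emi2 protein. They come from the GENCODE M21 transcripts (build GRCm38), 5′ to 3′ on the transcript strand. Capitals mark the poly(A) signal AATAAA in Mos and the cytoplasmic polyadenylation element TTTTAT in Fbxo43 and Fbxo5.
Mos: ttttaggaAATAAAgttaccacgaacttca
Fbxo43: gtatatatgtgtTTTTATactatacacaca
Fbxo5: aatgtgagttttTTTTATatctgtgaatac
The signal of Mos starts 22 bases from the transcript end, and the element of Fbxo5 starts 84 bases from it, with that of Fbxo43 farther inside. TTTTAT was searched on the transcript strand in the last 150 bases and found in 3 of the 9 members (Rps6ka2 was the third), against 17% of 21694 protein-coding genes. These letters were not in that window of the annotated Mos transcript, and no other form of the element was searched. AATAAA or ATTAAA was in the last 50 bases of 7 of the 9, against 72.6% of all. A match is a description of the annotated end, and counts per gene carry no information on tail length.

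The libraries set the precision of every value. GV oocytes had 3687610 to 7103063 counts each, and MII oocytes 808641 to 2348281. A feature without a symbol in the tables used here, ENSMUSG00000119584, took 15.7% to 61.2% of the MII counts, at most 11.2% in GV7 to GV9 and none in GV1 to GV6. It was left out of the totals, which leaves 3275485 to 7103063 counts in GV and 536101 to 1277878 in MII as the base of CPM (counts per 1e6 counts). The files of GV1 to GV6, of GV7 to GV9 and of the MII oocytes carry different column headers, so a difference of stage cannot be told apart from one of file set. For many genes, values are also given against the first GV set (GV1 to GV6) or the second GV set (GV7 to GV9). MII5, with 9617 genes detected, and MII6 had the largest shares of the feature, and for several members results are also given without both. Oocyte markers (15 of 15 with counts) summed to 8513 to 31859 CPM in GV and 9164 to 19727 CPM in MII, with Zp3 the most abundant. The 18 markers of cumulus and granulosa cells, led by Nr5a2, summed to 102 to 420 CPM in GV, highest in GV1, and to 29.5 to 127 CPM in MII, where 8 of them, Foxl2, Amh and Inha included, had no count. Markers of oviduct epithelium (Wt1 the most abundant of 8) summed to 19.4 CPM in GV1 and 20.6 CPM in GV2. They reached 3.05 CPM in the other GV oocytes and 0.783 CPM in MII. Markers of theca and stroma (Col1a1 the most abundant of 10) reached 51.2 CPM, in MII5. Within GV they too were highest in GV1 (19.8 CPM) and GV2 (27.4 CPM), with at most 4.95 CPM in the others. Markers of blood and immune cells, led by Pecam1, summed to 39.7 to 129 CPM, while Lyz2 and Cd3e had no count in either stage. The part of other cells in the results below was not tested.

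The mRNAs of the pathway were present at both stages, and their MII/GV ratios lay within 2-fold of that of the typical gene. Each ratio is the log2 of the summed MII level over the summed GV level, less that of the median measured gene, which stood at −0.29 in CPM. Measured genes had 5 CPM or more in the higher stage, and these were 10410 genes, all 9 members among them. The median of the 9 ratios was −0.38, beside 0 by construction for all measured genes. None of the 9 was at least 2-fold lower or higher in MII, whereas 15.8% of all measured genes were lower by that size and 12.9% higher. Rps6ka3 lay at the edge, with a ratio of −0.99, and was past it in several other settings, for example −1.06 with the mean of CPM over oocytes. The oocytes of a stage are cells of 1 sample, since no mouse is named, so no test was made. Each ratio is followed, after ±, by a spread that combines the SDs of both stages, taken on log2(CPM + 1) less the median gene of the oocyte. Spreads of the members ran from 0.71 to 1.90, and the median over all measured genes was 1.38. For 2 of the 9 the ratio was larger than its spread, Map2k1 (0.77 against 0.71) and, barely, Fbxo5 (−0.745 against 0.737). Without MII5 and MII6 these ratios were 0.51 and −0.54, smaller than the same spreads. How many of all measured genes had a ratio beyond their spread was not counted. In CPM, the GV and MII ranges overlapped for all 9; they were separate for 2.08% of measured genes. Levels relative to the median gene of each oocyte overlapped for all 9 too, and were separate for 2.47% of genes.

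**Figure D1:**
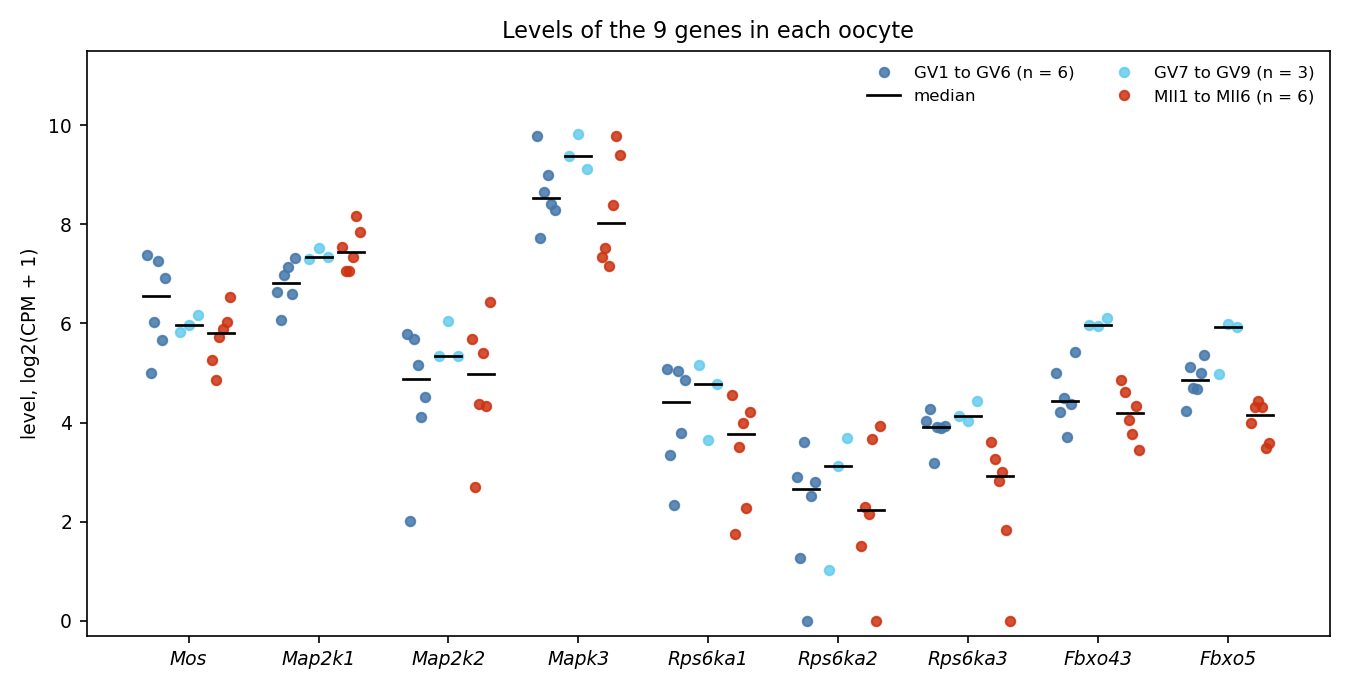
Levels of the 9 genes as log2(CPM + 1) in each of the 15 oocytes, 1 point per oocyte, with GV1 to GV6, GV7 to GV9 and the MII oocytes in separate columns and a bar at each median. Mapk3 has the highest median in each column group, Fbxo43 in GV7 to GV9 lies above all other oocytes, and GV and MII points overlap for every gene.

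Mos mRNA varied more among GV oocytes than between the stages. Mos (ENSMUSG00000078365, chromosome 4, a single exon in the annotation) was at 165 CPM in GV1, 31.0 in GV2, 64.6 in GV3, 151 in GV4, 49.4 in GV5, 120 in GV6, 55.6 in GV7, 61.9 in GV8 and 70.8 in GV9. In MII1 to MII6 it was at 37.3, 28.2, 51.8, 58.0, 64.0 and 92.2 CPM. The GV oocytes thus spanned 5.32-fold and enclosed all MII oocytes but MII2. GV1 and GV2 differed far beyond counting error, with exact Poisson 95% intervals of 153 to 176 and 25.9 to 36.7 CPM. The summed level was 86.6 CPM in GV (83.8 to 89.4) and 54.6 CPM in MII (48.8 to 60.8), giving −0.38 ± 0.94 as ratio. The ratio was −0.54 with the first GV set and 0.02 with the second, so its sign depended on the set, a difference that was not tested. GV7 to GV9 were closely alike in Mos (62.8 ± 7.64 CPM, SD, n = 3), while GV1 to GV6 were not (96.7 ± 56.0 CPM, SD, n = 6).

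The MEK genes encode the kinases that Mos activates, and the Map2k1 mRNA had the highest ratio of the 9. Map2k1 (MEK1, chromosome 9) was at 65.7 to 183 CPM in GV, median 140, and at 131 to 288 CPM in MII, median 173. MII1, MII5 and MII6 lay above every GV oocyte, and none lay below the GV range. The summed levels were 128 CPM in GV (125 to 132) and 178 CPM in MII (168 to 190), giving 0.77 ± 0.71 as ratio. With the first GV set it was 0.89, with the second 0.31 and without MII5 and MII6 0.51. It was below 0 (−0.19) in 1 other setting, CPM with the feature counted in the totals, a value not taken relative to the median gene. Map2k2 (MEK2, chromosome 10) was at 3.05 CPM in GV2 and 65.2 CPM in GV8, a 21.4-fold span, with a GV median of 39.4. In MII it ran from 5.48 CPM in MII2 to 85.6 CPM in MII6, median 30.7. Its ratio of 0.23 ± 1.74 has no fixed sign: it was −0.22 without MII6 and −0.28 with the second GV set. In CPM, not relative to the median gene, it was −0.06. Within each oocyte, Map2k1 took 64.2% to 95.5% of the MEK counts per kilobase in GV and 72.5% to 96.0% in MII, and so exceeded Map2k2 in all 15.

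Mapk3 was the most abundant member in the summed levels of both stages. It encodes ERK1 (chromosome 7) and took 42.0% to 67.6% of the summed CPM of the 9 genes in a GV oocyte and 31.4% to 68.4% in an MII oocyte. In MII1 it was below Map2k1, at 160 against 185 CPM. Its GV levels ran from 211 CPM in GV2 to 905 in GV8, median 511. The MII oocytes were widely spread, with 142 to 183 CPM in MII1, MII2 and MII3, below every GV oocyte, 335 in MII4, 668 in MII6 and 882 in MII5. The summed ratio was −0.16 ± 1.34, without MII5 it was −0.52, and without MII5 and MII6 it was −0.94. It was 0.01 with the first GV set and −0.72 with the second.

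**Figure D2:**
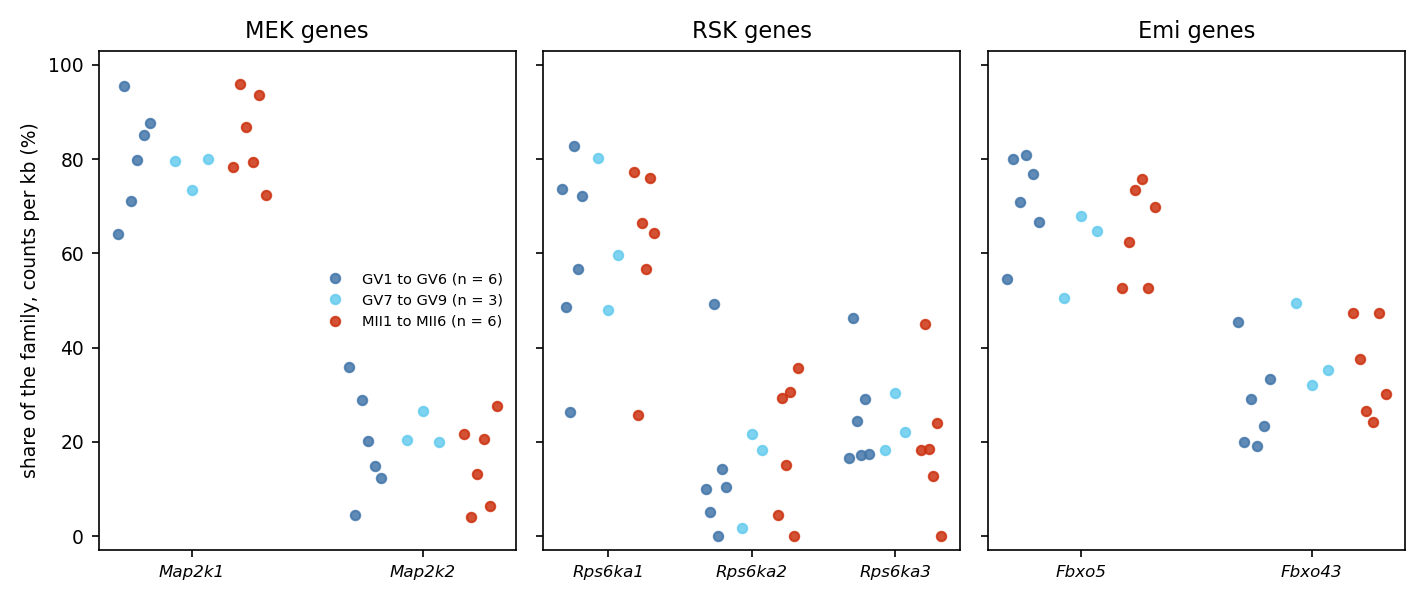
Share of each gene in the counts per kilobase of its family within single oocytes (percent, 1 point per oocyte): MEK, RSK and Emi genes. Map2k1 takes most of its family in all 15 oocytes, the RSK shares vary most, and Fbxo5 lies above Fbxo43 throughout.

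The RSK genes, targets of the ERK kinases, were the least abundant members. Rps6ka1 (RSK1, chromosome 4) was at 4.08 to 34.7 CPM in GV, median 26.6, and at 2.35 to 22.4 CPM in MII, median 12.6. No MII oocyte reached the GV median, and the ratio was −0.59 ± 1.38, or −0.52 with the first GV set and −0.94 with the second. Rps6ka3 (RSK2, chromosome X) was the most even member in GV, at 8.02 CPM in GV3 and 13.9 to 20.8 CPM in the other 8. In MII it was at 11.2, 8.61, 6.05, 7.06, 2.56 and 0 CPM in MII1 to MII6. MII3 to MII6 were below the GV range; MII6, with 0 counts, could hold up to 3.29 CPM (3 counts). The summed levels were 14.5 CPM in GV (13.4 to 15.7) and 5.89 CPM in MII (4.11 to 8.20, from 35 counts), which gives −0.99 ± 1.38. With the first GV set this was −0.92, with the second −1.33, and without MII5 and MII6 −0.58. Rps6ka2 (RSK3, chromosome 17) had 38 MII counts in all and 0 in GV4 and MII5, where 3 counts would be 0.569 and 3.84 CPM. It was at up to 11.9 CPM in GV and up to 14.3 CPM in MII, a ratio of 0.47 ± 1.90. This ratio was 0.51 with the first GV set, 0.19 with the second and −0.48 with the median over oocytes. With the feature counted it was also −0.48, a value not taken relative to the median gene.

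Rps6ka1 led the RSK genes per kilobase in every oocyte except GV3 and MII2. Rps6ka1 held over 50% of the RSK counts per kilobase in 6 of 9 GV and 5 of 6 MII oocytes, with a median of 59.6% in GV and 65.4% in MII. In GV3, Rps6ka2 held 49.3% and Rps6ka1 26.2%. Counts of Rps6ka2 are less certain, since 34.5% of its 50-base stretches also occur in other annotated transcripts. In MII2, with 19 RSK counts, Rps6ka3 held 44.9% and Rps6ka1 25.8%. The leading gene of an oocyte also depends on length: in raw counts the share of Rps6ka1 was 50.1% in GV and 47.1% in MII, and Rps6ka3 had the largest share in GV2, GV5, GV8 and MII2. The MII shares rest on few counts, and the ranges of the stages overlapped for each RSK gene. In raw counts Rps6ka3 made up 35.8% of the RSK counts in GV (33.6 to 38.1) and 25.4% in MII (18.3 to 33.5). Rps6ka2 made up 14.1% (12.5 to 15.8) and 27.5% (20.3 to 35.8). These intervals cover counting error only, which is smaller than the spread between oocytes.

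The Emi genes encode inhibitors of the anaphase-promoting complex, and both had a lower summed level in MII, under 2-fold relative to the median gene. Fbxo43 encodes Emi2 (chromosome 15), the inhibitor that keeps the egg at metaphase II. It was at 31.0, 17.6, 21.4, 12.1, 19.6 and 41.7 CPM in GV1 to GV6, at 62.0, 60.8 and 68.1 CPM in GV7 to GV9, and at 28.0, 23.5, 15.5, 12.6, 19.2 and 9.88 CPM in MII1 to MII6. The MII oocytes lay within or just below the levels of GV1 to GV6 and far below those of GV7 to GV9. The summed levels were 33.6 CPM in GV (31.9 to 35.4) and 17.3 CPM in MII. The ratio was −0.66 ± 1.05 with all GV oocytes, −0.18 with the first GV set and −1.65 with the second. Fbxo43 was the only member whose 2 GV sets did not overlap, as was the case for 15.3% of the genes measured in GV. It was at 23.9 ± 10.7 CPM (SD, n = 6) in the first set and 63.6 ± 3.90 CPM (SD, n = 3) in the second. This was the only member at least 2-fold apart between the sets relative to the median gene, as 18.1% of genes were upward and 20.2% downward in the second set.

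Fbxo5 encodes Emi1 (chromosome 10), which acts earlier in oocyte maturation and in dividing cells. It was at 17.9 CPM in GV1, 24.6 to 40.0 CPM in GV2 to GV7, 62.2 in GV8 and 60.1 in GV9. It was at 14.9, 18.8, 20.7 and 18.8 CPM in MII1 to MII4, and was lowest in MII5, at 10.2 CPM, with MII6 close to it. Only GV1 of the GV oocytes lay within the MII range, and without GV1 and GV2 the stages did not overlap, as for 2.74% of genes then. The ratio was −0.74 ± 0.74, or −0.52 with the first GV set and −1.38 with the second. It was below 0 in all 30 other settings run, as were the ratios of Rps6ka1, Rps6ka3 and Fbxo43. These settings reuse the same oocytes, many leave out only 1 oocyte, and some were not taken relative to the median gene. The shared sign is therefore no independent support. The MII oocytes varied in Fbxo5 by 1.14 times the variance that counting gives, and the GV oocytes by 28.3 times. Fbxo5 exceeded Fbxo43 per kilobase in all 15 oocytes, an order that rests on length, since Fbxo43 took 49.8% of the raw counts of the pair in GV and 51.2% in MII. The share of Fbxo43 in this pair was 32.3% in the summed GV counts (19.1% to 49.5% in single oocytes) and 33.6% in MII (24.3% to 47.4%). Within GV, the summed share was 28.5% in the first set and 37.9% in the second.

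**Figure D3:**
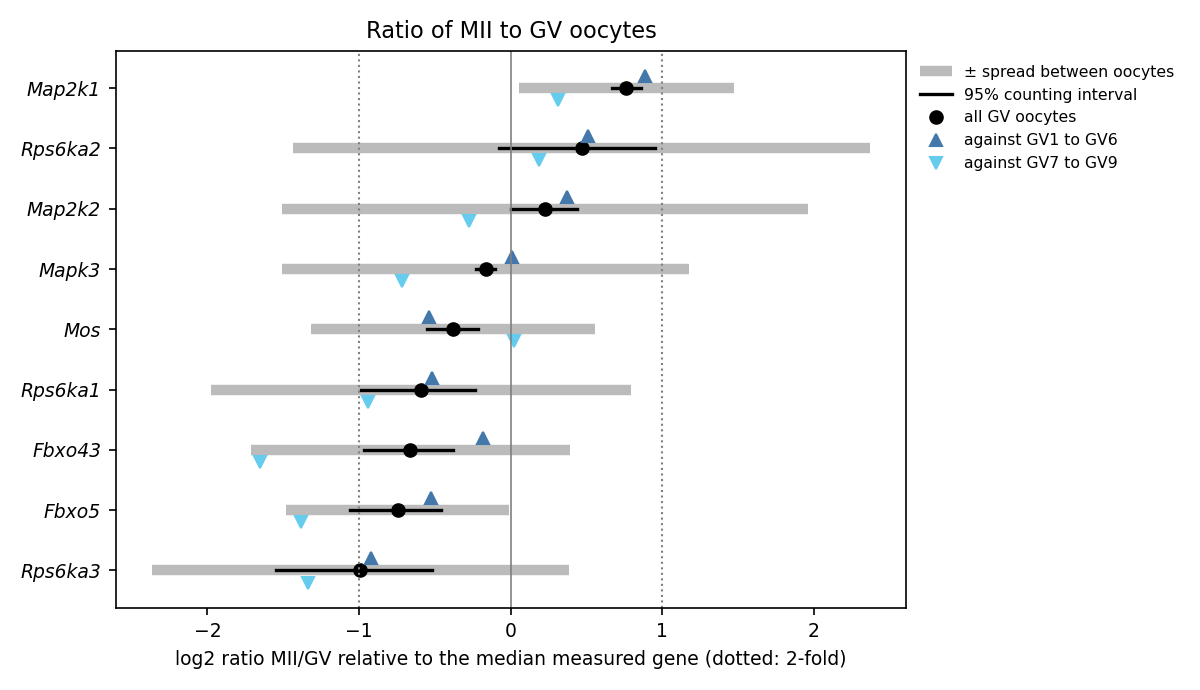
Log2 ratio MII/GV relative to the median measured gene (x axis) for the 9 genes, against all GV oocytes (black, with the 95% counting interval as a black line and the spread between oocytes as a grey bar), GV1 to GV6 alone and GV7 to GV9 alone. Ratios run from −0.99 for Rps6ka3 to 0.77 for Map2k1 inside the dotted 2-fold lines, and against GV7 to GV9 alone Fbxo43, Fbxo5 and Rps6ka3 are below −1; Mos, Map2k2 and Mapk3 have ratios of opposite sign against the 2 GV sets.

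Compared with the second GV set only, 3 members were at least 2-fold lower in MII (Fbxo43, Fbxo5 and Rps6ka3), where 21.1% of the measured genes were, and none was at least 2-fold higher, where 21.5% were. The same 3 had every MII oocyte below GV7 to GV9, in a comparison where ranges were separate for 19.6% of genes. Compared with the first GV set only, no member was past 2-fold in either direction, where 16.6% of genes were lower and 13.3% higher. The medians of the 9 were −0.72 and −0.18. Both values share the same MII oocytes.

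The order of the genes per kilobase of exon put Mapk3 first in both stages. In GV the mean levels per kilobase were 263 ± 122 CPM for Mapk3, 58.95 ± 32.8 for Mos, 53.9 ± 15.7 for Map2k1, 18.6 ± 7.99 for Fbxo5, 15.0 ± 8.14 for Map2k2, 9.21 ± 5.37 for Fbxo43, 5.79 ± 3.20 for Rps6ka1, 1.96 ± 0.45 for Rps6ka3 and 1.04 ± 0.80 for Rps6ka2 (SD, n = 9). Mapk3 was above Mos in 9 of 9 GV oocytes, while Mos was above Map2k1 in only 3, so those neighbours in the order did not differ beyond their spread. Map2k1 was above Fbxo5 in 9 of 9. The steps from Fbxo5 down to Rps6ka1 were also smaller than the combined SDs. In MII the means were 196 ± 154 CPM per kilobase for Mapk3, 77.1 for Map2k1 (54.0 to 118 in single eggs), 38.1 ± 15.5 for Mos, 15.4 for Map2k2 (2.28 to 35.6 in single eggs), 8.12 ± 2.27 for Fbxo5, 4.49 ± 1.69 for Fbxo43, 3.23 ± 2.14 for Rps6ka1, 1.09 ± 1.06 for Rps6ka2 and 0.76 ± 0.53 for Rps6ka3 (SD, n = 6). Map2k1 was above Mos in 6 of 6 MII oocytes, and Mos above Map2k2 in 6 of 6. Mapk3 was above Map2k1 in 6 of 6, but by less than the combined SDs. The step between Map2k2 and Fbxo5 and those from Fbxo43 down to Rps6ka3 were also within them.

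Counts of the members varied between oocytes of a stage mostly by far more than sampling of counts gives. For Mos the variance over oocytes (chi-square per degree of freedom) was 127 times the counting error in GV and 8.92 times in MII, and within the GV sets it was 167 times in GV1 to GV6 and 3.32 times in GV7 to GV9. Fbxo43 varied by 24.0 times the counting error in GV1 to GV6, and by 0.818 times, at the level of counting error, in GV7 to GV9. Mapk3 had the largest value in each set, 599 times in GV1 to GV6, 161 times in GV7 to GV9 and 224 times in MII. This measure grows with the counts of a gene, and Mapk3 had the most. Its SD over mean in GV was 0.46, above Map2k1, Rps6ka3 and Fbxo5. It was below that of Mos (0.56), Map2k2, Rps6ka1, Rps6ka2 (0.77) and Fbxo43. In MII the SD over mean of Mapk3 was 0.78, with only Rps6ka2 higher (0.98). Deeper libraries have less counting error, so the values of the stages are not on equal terms.

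Correlations between the members differed by pair and by stage. Over the 9 GV oocytes, levels relative to the median gene had Pearson correlations above 0 for 25 of the 36 pairs, with a median of 0.26. The highest was between Map2k2 and Mapk3 (0.86) and the lowest between Mos and Fbxo5 (−0.53). Fbxo43 and Fbxo5 had a correlation of 0.66 over the GV oocytes, and Mos and Fbxo43 −0.13. Over the 6 MII oocytes the median over the 36 pairs was −0.09, with 0.19 for Fbxo43 and Fbxo5 and −0.70 for Mos and Fbxo43. These describe single cells that share file sets and depth. Pairs of other genes were not counted for comparison, and a difference between the stages was not tested. The genes most like Mos over all 15 oocytes, among 6003 protein-coding genes with at least 20 CPM, were Psrc1 (0.82), Prkab1 (0.80), Avpi1 (0.79), Serpinc1 (0.78) and Fastk (0.77). Most like Fbxo43 were Phtf2 (0.90), Sec23a (0.89), Ddhd1 (0.87), Alg10b (0.87) and Heatr5b (0.86).

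Other genes of the pathway had ratios on both sides of the median gene. Of 85 further genes with counts in 4 lists, each gene counted once, 77 were measured, of which 10 were at least 2-fold lower, 10 at least 2-fold higher and 57 within 2-fold, with a median of 0.07. The shares lower and higher are near those of all measured genes (15.8% and 12.9%). Rps6ka4 had no count in any file.

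Among neighbours in the MAPK cascade (Ras, Raf, scaffold and phosphatase genes), 21 of 26 were measured, and their median was 0.30. Of these, 2 were past 2-fold downward and 3 upward. Dusp7, a MAP kinase phosphatase, was the most abundant per kilobase, at 1335 to 2836 CPM in GV and 1301 to 1991 CPM in MII (0.08 ± 0.58, and −0.26 with the second GV set). The adaptor gene Grb2 had the lowest ratio (−2.30 ± 1.72), with 3.38 to 38.5 CPM in GV and 0 to 9.33 CPM in MII, from 17 MII counts. Its ratio was −1.64 with the first GV set and −3.47 with the second. The phosphatase gene Dusp4 had the highest (4.73 ± 2.59), from 20 counts in 5 GV oocytes and 61 counts in 3 MII oocytes, MII3, MII4 and MII5, with 0 counts in the other MII oocytes.

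The list of substrates and related kinases had 10 of 11 genes measured, 3 of them at least 2-fold lower and 0 higher, with a median of 0.05. Cpeb1 was both its most abundant gene per kilobase and the lowest. It encodes the protein that binds cytoplasmic polyadenylation elements such as those shown for Fbxo43 and Fbxo5. Cpeb1 was at 413 to 604 CPM in GV, median 481, and at 60.2 to 187 CPM in MII, median 151. Every MII oocyte was below every GV oocyte, as for 1.32% of measured genes, and the ratio was −1.53 ± 0.59 (−1.63 and −1.38 against the 2 GV sets). The checkpoint gene Mad1l1 had the highest ratio of this list (0.32 ± 1.18), with 0.06 for the first GV set and 1.24 for the second.

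Partners of the Emi proteins and genes of the exit from arrest had 30 of 33 measured, 4 at least 2-fold lower and 5 higher, with a median of −0.01. Plk1, a kinase that marks Emi2 for destruction at fertilization, was the most abundant per kilobase. It was at 872 to 1211 CPM in GV and 1544 to 2497 CPM in MII, without overlap, as for 0.768% of genes upward. The ratio was 1.13 ± 0.40, with 1.12 for the first GV set and 0.99, under 2-fold, for the second. Ppp2r5a, a regulatory subunit of phosphatase PP2A, had the lowest ratio (−1.75 ± 0.97), with −2.04 for the first GV set and −0.62 for the second. It was at 4.59 to 27.5 CPM in GV and at 2.20 to 9.33 CPM in MII, from 24 MII counts in all. Summed, it reached 5 CPM only in GV (17.0 against 4.04 CPM). The kinase gene Cdk1 had the highest (1.68 ± 1.33), at 2.35 to 16.0 CPM in GV and 3.45 to 36.2 CPM in MII, and 0.85 with the second GV set.

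Regulators of stored mRNA had all 18 genes measured, 2 at least 2-fold lower and 2 higher, with a median of 0.06. Ybx2, an mRNA-masking protein of germ cells, was the most abundant per kilobase (1.12 ± 1.55), with 0.89 for the first GV set and 1.91 for the second. It was at 514 to 2234 CPM in GV, median 1465. In MII it was at 5246 CPM in MII5 and 5488 CPM in MII6, but at 783 to 1065 CPM in MII1 to MII3. No ratio without MII5 and MII6 is given for this gene. The cap-binding factor gene Eif4e had the highest ratio (1.41 ± 0.57), at 207 to 721 CPM in GV and 548 to 983 CPM in MII. The RNA-binding gene Msi1 had the lowest (−2.07 ± 2.31), with 9 MII counts in 2 oocytes, and 1.63 with the second GV set. Of its 353 GV counts, 164 were in GV1 and 134 in GV2, so the ratio rests largely on those oocytes.

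**Figure D4:**
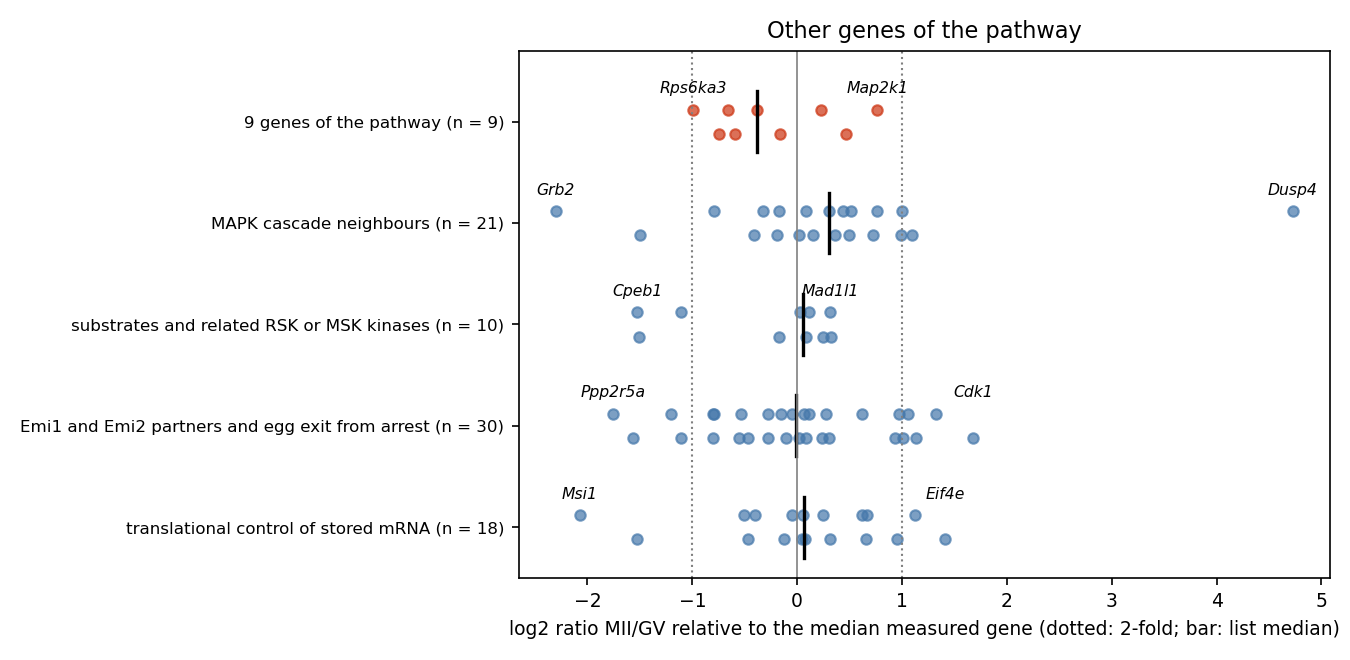
Log2 ratio MII/GV relative to the median measured gene (x axis) of each measured gene, 1 point per gene, for the 9 genes of the pathway and the 4 lists of other genes, with a bar at each list median and dotted lines at 2-fold. Medians lie between −0.38 and 0.30, and the genes with the lowest and highest ratio are named.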

How the data were processed

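Each oocyte has 1 deposited table of gene IDs (Ensembl) with raw counts as whole numbers, per the file headers. The submitters' processing notes list GRCm39 as build, and STAR 2.7.10a and cutadapt 4.0 as tools. How counting was done, with which annotation, strand setting or molecular identifiers, was not found in the sources used here. Per the labels' protocols, cDNA was amplified by 28 cycles of PCR. Genes absent from a file were taken as 0. The lowest chi-square per degree of freedom among 51 same-stage pairs was 7.26, above the 1 of sampling noise alone.

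Symbols, exon lengths and transcript ends came from GENCODE M21 (GRCm38), used for no coordinates. Of 28785 IDs, 28402 had a symbol, and of 158 list entries 157 matched by symbol and 1 by RefSeq accession. Of the 50-base stretches of the longest Rps6ka2 transcript, 34.5% also occur in other annotated transcripts (Sod2 and AC166110.4), and of Fbxo5 8.99% (pseudogene Gm16042), so these counts are less certain; the other members were at 1.4% or less.

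The log2 ratio used summed counts with 0.5 added. Means used CPM per oocyte. No test was possible with 1 sample per stage, and intervals cover counting error only, since PCR reads are not independent molecules. Members and lists were chosen with earlier results of these data known. Named genes were all members, in each list the gene most abundant per kilobase and the genes of lowest and of highest ratio, for each marker list the most abundant gene, and the 5 genes most correlated with Mos and with Fbxo43. The calculation of the ratios was tried on simulated counts with sampling noise only. Variation between oocytes was not simulated, so this trial does not show how precise the ratios are. Tools were Python 3.11.15, pandas 2.3.3, scipy 1.17.1, edgeR 4.0.16 (TMM factors only) and DESeq2 1.42.0 (size factors only). A gene of 1 list and the shares that need it are not reported here.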

Additional observations from a re-analysis of the deposited data

How the results depend on the processing

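No member was past 2-fold with all oocytes, but that count was not stable. The number at least 2-fold lower in MII was 1 with the mean or the median of CPM, TMM, median-of-ratios, a 20 CPM minimum or no minimum (Rps6ka3 each time). It was 2 in CPM without the feature or after thinning to 808641 counts, and 3 against GV7 to GV9 (21.1% of genes). It was 6 with the feature counted in the totals, and 0 to 1 with any single oocyte left out. Ratios with TMM, median-of-ratios, in CPM without the feature and with the feature counted were not taken relative to the median gene. With the feature counted, the median gene itself stood at −0.95, near the 2-fold line. Shares of all genes past 2-fold were counted only for the main setting and the GV sets. The number at least 2-fold higher was 0 in all 30 alternatives. The median of the 9 ratios was −1.33 with the feature counted and −0.54 to −0.18 with 1 oocyte left out. Members without overlap between stages numbered 2 with the feature counted (Rps6ka3 and Fbxo5, where 4.59% of genes were without overlap), 1 without GV1 and GV2 (Fbxo5, 2.74% of genes) and 3 against GV7 to GV9 (19.6% of genes). Without length scaling, Fbxo43 took 49.8% of the Emi pair in GV and 51.2% in MII, and Rps6ka1 50.1% and 47.1% of the RSK counts, so the order of Fbxo5 over Fbxo43 rests on length, while Rps6ka1 remains the largest RSK share in the sums. Using the longest transcript as length was chosen after seeing the data and moved no share beyond its spread. With 1 oocyte left out, the share of Rps6ka1 ran from 62.1% to 68.8% in GV and 57.6% to 64.7% in MII, of Map2k1 from 76.6% to 79.6% and 81.4% to 87.1% and of Fbxo43 from 30.1% to 33.4% and 32.0% to 36.1%. The median measured gene stood at −0.29 in CPM, −0.95 with the feature counted, −0.09 with TMM and −0.04 with median-of-ratios. No paired analysis was possible because the oocyte numbers only name cells and no result comes from a test. MII depth limits Rps6ka2 and Rps6ka3, with fewer than 40 MII counts each.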
